A study of Arabidopsis thaliana with 6 samples.

Results

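The PRE genes of Arabidopsis thaliana encode small helix-loop-helix proteins of the PACLOBUTRAZOL RESISTANCE family. The family has 6 members in the list used here, and the 4 described below are the ones given by locus identifier: PRE1 (AT5G39860), PRE2 (AT5G15160, also called BANQUO 2), PRE4 (AT3G47710, also called BANQUO 3) and PRE5 (AT3G28857). They are 4 of the 1537 genes in the table analysed. PRE3 (AT1G74500) and PRE6 (AT1G26945) have no row in it and are not analysed here. RNA was sequenced from whole seedlings, 10 days old, of the Columbia wild type (Col-0, 3 libraries) and of the line BIC1-YFP in the same ecotype (3 libraries), all raised in long days on half-strength medium. BIC1-YFP carries BIC1, a protein that inhibits cryptochromes, the blue-light receptors, fused to yellow fluorescent protein. The sources used here do not give the promoter of the fusion or the number of lines behind the samples. The comparison asks, by the series title, whether BIC1 promotes brassinosteroid signalling and plant growth as a transcriptional coactivator.

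PRE proteins have a helix-loop-helix domain but lack the basic region that contacts DNA. They bind inhibitory helix-loop-helix proteins such as IBH1 and so free growth-promoting bHLH factors such as HBI1, which activate genes of cell expansion. Brassinosteroid acts on PRE1 through the transcription factor BZR1, gibberellin and auxin act on the same module, and PRE1, PRE2 and PRE4 were also described as genes that the floral regulators AP3 and PI repress in petals. Overexpression of PRE1 lets seedlings grow on paclobutrazol, an inhibitor of gibberellin synthesis, which gave the family its name.

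All 4 genes have the same plan in the RefSeq annotation of the TAIR10.1 assembly, with 2 exons and 1 transcript each and no annotated gene overlapping them. PRE1 lies on chromosome 5 from 15957368 to 15958559 on the plus strand, and PRE2 on chromosome 5 from 4921243 to 4922812 on the minus strand. PRE4 lies on chromosome 3 from 17590544 to 17591670 on the plus strand, and PRE5 on chromosome 3 from 10855623 to 10856787 on the minus strand. The coding sequences encode 92 residues in PRE1, PRE4 and PRE5 and 94 in PRE2. PRE1 and PRE5 are the closest pair, with 84.6% identical bases in a global alignment of their coding sequences and a longest shared run of 20 bases. The other pairs among the 4 share between 64.7% and 71.3%, and PRE1 and PRE4 are the least alike. Coding reads of PRE1 and PRE5 may be hard to assign if they are no longer than 20 bases or if mismatches were allowed. In this alignment a longer read would meet at least 1 difference between the 2 genes. The sources used here do not say how reads that fit both were counted.

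The 300 bases before each annotated start are shown because 3 of these genes differed between the genotypes and in both directions. They are read from TAIR10.1 in the direction of transcription. Capitals mark matches to the E-box CANNTG, the core that bHLH and BZR1-type factors recognise, searched on both strands. The windows are chr5:15957068-15957367 on the plus strand for PRE1, chr5:4922813-4923112 on the minus strand for PRE2, chr3:17590244-17590543 on the plus strand for PRE4 and chr3:10856788-10857087 on the minus strand for PRE5.
PRE1: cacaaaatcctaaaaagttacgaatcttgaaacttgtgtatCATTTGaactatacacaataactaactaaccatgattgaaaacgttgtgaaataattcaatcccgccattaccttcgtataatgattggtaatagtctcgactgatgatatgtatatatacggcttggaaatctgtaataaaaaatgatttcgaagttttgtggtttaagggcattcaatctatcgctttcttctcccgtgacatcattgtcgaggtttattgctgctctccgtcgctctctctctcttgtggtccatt
PRE2: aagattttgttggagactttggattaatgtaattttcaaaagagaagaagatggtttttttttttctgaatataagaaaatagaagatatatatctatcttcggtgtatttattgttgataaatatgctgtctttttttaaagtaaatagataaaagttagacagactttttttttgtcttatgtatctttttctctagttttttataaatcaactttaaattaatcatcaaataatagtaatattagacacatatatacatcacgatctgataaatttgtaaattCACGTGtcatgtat
PRE4: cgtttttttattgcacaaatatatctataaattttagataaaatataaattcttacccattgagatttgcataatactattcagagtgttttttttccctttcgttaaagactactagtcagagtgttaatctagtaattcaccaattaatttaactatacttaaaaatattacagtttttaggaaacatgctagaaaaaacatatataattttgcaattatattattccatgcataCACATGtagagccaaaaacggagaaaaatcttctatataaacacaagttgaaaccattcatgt
PRE5: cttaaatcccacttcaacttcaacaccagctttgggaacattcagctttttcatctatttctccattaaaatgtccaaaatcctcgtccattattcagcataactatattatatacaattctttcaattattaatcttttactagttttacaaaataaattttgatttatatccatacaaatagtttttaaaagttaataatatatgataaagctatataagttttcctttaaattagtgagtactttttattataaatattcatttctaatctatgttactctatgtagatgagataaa

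The E-box in the PRE1 window is CATTTG and begins 259 bases before the start. The PRE2 window has a G-box, CACGTG, an E-box form bound by PIF proteins, 14 bases before the start. The E-box of PRE4 is CACATG, also known as the PBE-box, 63 bases before the start, and the PRE5 window has no E-box. Of the 27438 nuclear protein-coding genes with such a window, 61.9% hold an E-box, 7.09% a G-box and 13.1% CACATG or its reverse complement CATGTG; every G-box and PBE-box is also an E-box. Neither form of the brassinosteroid response element, CGTGCG or CGTGTG, was matched on either strand in the 4 windows. The shares of all windows that hold these 2 forms are 1.78% and 6.12%. The auxin response element TGTCTC, which 13.0% of all windows hold on either strand, was not matched in the 4 windows either. The windows are rich in A and T, with 36.0% G and C in PRE1, 22.7% in PRE2, 25.3% in PRE4 and 23.7% in PRE5. These matches describe letters in a short window and say nothing about binding.

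Before the results, the table itself has to be described. The authors had already selected its genes as different between the genotypes: the largest adjusted p in the authors' deposited table is 0.0499. The smallest absolute log2 fold change deposited there is 0.586, so small differences are missing as well. Values are normalized abundances in units whose scaling is not given, and the depth of the libraries is unknown. The targeted gene, BIC1 (AT3G52740), had a mean of 340.0 units in the wild type and 17579 in BIC1-YFP, with no overlap. Green-tissue markers were abundant in every library: 8 of 11 listed ones are in the table, and their summed abundance was 563553 to 797872 units. In a principal component analysis of the tested genes, wild-type replicate 3 (-14.2 on the first component) lay nearer to the BIC1-YFP libraries (17.8 to 29.2) than wild-type replicate 1 (-29.6) and replicate 2 (-28.2). Differences were tested with limma on log2(value + 1) over all 1531 genes with enough abundance, and a gene was called at a Benjamini-Hochberg adjusted p under 0.05. By this rule 1173 genes, 76.6% of those tested, were called, with 37.6% called higher and 39.1% called lower. Among the 4 PRE genes, all of which were tested, 2 were called higher, 1 was called lower and 1 was not called. A share of 3 in 4 is close to that background, so the number of calls is not a result about the PRE genes. Their log2 fold changes ran from -1.48 to 2.28, and the median absolute log2 fold change over all genes tested was 0.90, a value that the authors' selection shapes.

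PRE1, the founding member, rose in BIC1-YFP. Its abundance was 8.03, 9.67 and 1.37 units in wild-type replicates 1, 2 and 3, and 42.0, 33.4 and 16.5 units in BIC1-YFP replicates 1, 2 and 3. Every BIC1-YFP library was above every wild-type library, and replicate 3 was the lowest of each genotype. The means were 6.36 ± 4.39 and 30.7 ± 13.0 units (SD, n = 3), a 4.82-fold difference. In limma its log2 fold change was 2.28 with an SE of 0.65 and an adjusted p of 0.023, larger in size than that of 95.5% of the genes tested. Its p-value stood only at rank 664 of 1531, and its SD on the log2 scale in the wild type, 1.19, was above that of 95.4% of genes. The call was lost without BIC1-YFP replicate 1 (limma, adjusted p = 0.056) or replicate 2 (0.067). Over the whole table these fits called 962 and 441 genes, against 1173 with all libraries. Without wild-type replicate 3, the library with the lowest value, the log2 fold change was 1.59 and the call was kept (limma, adjusted p = 0.027).

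PRE5, the closest relative of PRE1 in coding sequence, rose as well. Wild-type replicates 1, 2 and 3 stood at 1.01, 7.93 and 7.84 units, and BIC1-YFP replicates 1, 2 and 3 at 15.02, 27.0 and 21.7 units. The genotypes did not overlap, and here replicate 1 was the lowest of each genotype. The means were 5.59 ± 3.97 and 21.2 ± 6.0 units (SD, n = 3), a 3.80-fold difference, and limma gave a log2 fold change of 2.00 with an SE of 0.64 and an adjusted p of 0.029. Without wild-type replicate 1 the log2 fold change was 1.29 (limma, adjusted p = 0.046). The call was lost without BIC1-YFP replicate 2 (limma, adjusted p = 0.084) or replicate 3 (0.069), fits that called 441 and 710 genes over the whole table.

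PRE2, the most abundant of the 4, did not pass the test. Its abundance was 55.2, 61.8 and 75.9 units in the wild-type libraries and 133, 103 and 70.4 units in BIC1-YFP, in the order of the replicate numbers. BIC1-YFP replicate 3 was below wild-type replicate 3, so the genotypes overlapped. The means were 64.3 ± 10.6 and 102 ± 31.4 units (SD, n = 3), and limma gave a log2 fold change of 0.63 with an SE of 0.29 and an adjusted p of 0.075. Its 95% interval ran from -0.05 to 1.299, which leaves room for no difference and for a more than 2-fold one. Without BIC1-YFP replicate 3 the log2 fold change was 0.87 and PRE2 was called (limma, adjusted p = 0.043).

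PRE4 went the other way and was lower in BIC1-YFP. It stood at 11.0, 20.1 and 17.4 units in wild-type replicates 1, 2 and 3 and at 9.01, 5.38 and 2.40 units in BIC1-YFP replicates 1, 2 and 3. The genotypes did not overlap, but wild-type replicate 1 and BIC1-YFP replicate 1 were close, at 11.0 and 9.01 units. The means were 16.2 ± 4.65 and 5.60 ± 3.31 units (SD, n = 3), a 2.89-fold lower mean, and limma gave a log2 fold change of -1.48 with an SE of 0.49 and an adjusted p of 0.032. This call was the least secure of the 3. It was lost without wild-type replicate 1 (limma, adjusted p = 0.051), replicate 2 (0.093) or replicate 3 (0.065), and without BIC1-YFP replicate 2 (0.074) or replicate 3 (0.083), and it held only without BIC1-YFP replicate 1 (0.034). The sign of every PRE gene was the same in each of these fits. Most of them called fewer genes over the whole table, down to 441 against 1173 with all libraries. Lost calls are therefore not particular to the PRE genes. Without wild-type replicate 3, however, 1219 genes were called and PRE4 was not. With a pseudocount of 5 in place of 1 the log2 fold changes were 1.67 for PRE1 and 1.37 for PRE5, and both stayed called.

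**Figure D1:**
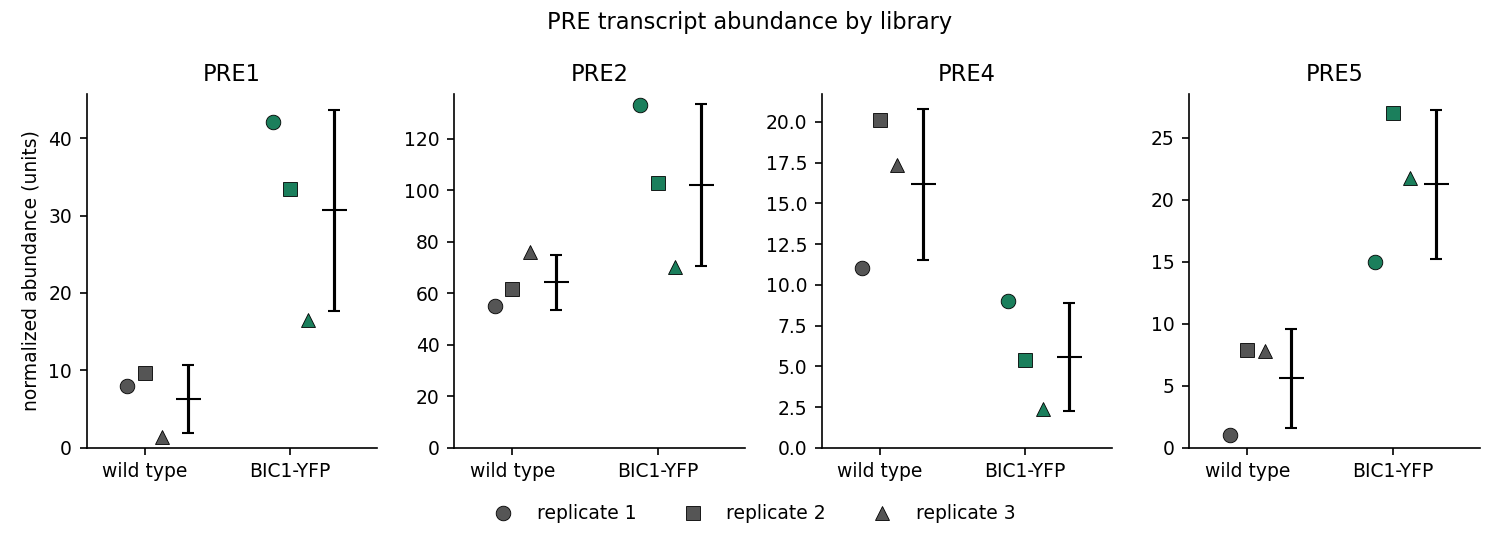
Normalized abundance (units, linear axes from 0) of PRE1, PRE2, PRE4 and PRE5 in each library, with symbols for replicates 1 to 3 and bars for the mean ± SD of 3 libraries. PRE1 and PRE5 are higher in all BIC1-YFP libraries, PRE4 is lower in all of them, and the PRE2 values of the genotypes overlap.

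**Figure D2:**
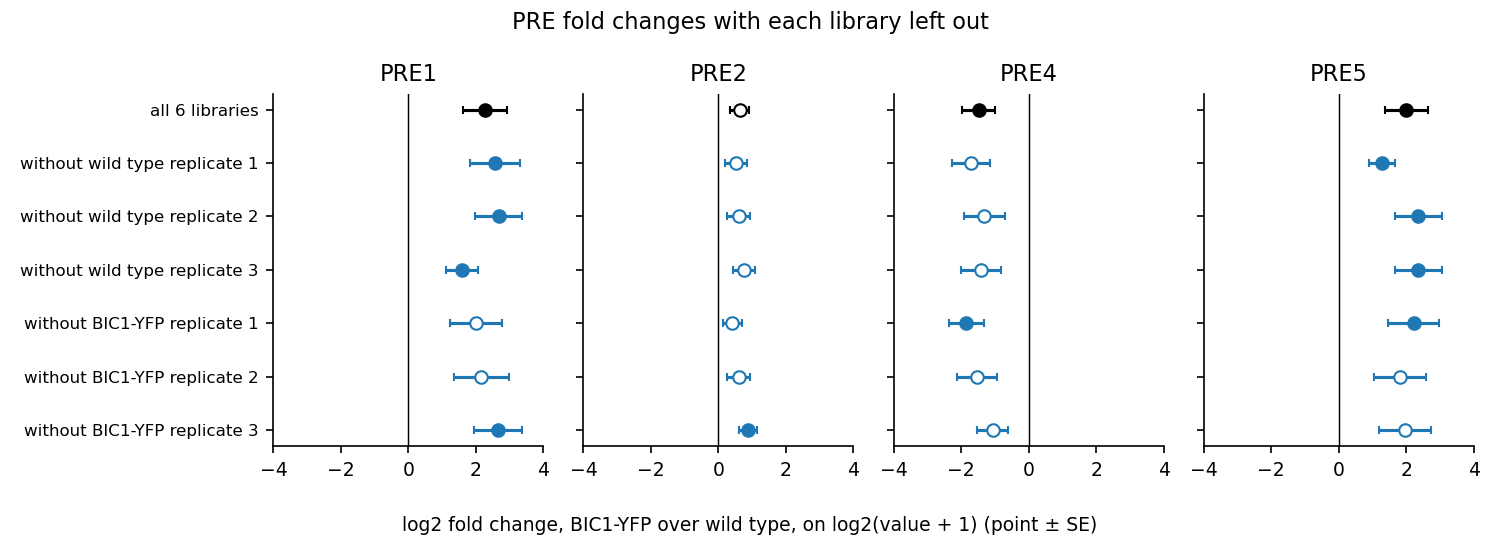
Log2 fold change (BIC1-YFP over wild type, on log2(value + 1)) with its limma SE for each PRE gene, with all 6 libraries (black) and with each library left out (blue). Filled points passed an adjusted p of 0.05; among the fits with a library left out, PRE4 keeps its filled point only without BIC1-YFP replicate 1, and no point changes sign.

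Non-overlap is also common in this table, at 76.0% of the genes tested, against 3 of the 4 PRE genes. The adjustment over the listed genes is lenient because they were chosen for differing. The deposited fold changes form 2 sets, below the ratio of the deposited means in 644 genes, PRE1 among them, and above it in 893, among them PRE2, PRE4 and PRE5. Ranked within each set, the deposited p-values imply at least 21574 tests in the first and 13246 in the second. Limma p-values adjusted over 21574 tests left 3.27% of the genes called and no PRE gene: the adjusted p was 0.32 for PRE1, 0.40 for PRE5, 0.45 for PRE4 and 1 for PRE2. Over 13246 tests, an alternative chosen after seeing the data, 7.51% were called and again no PRE gene, with adjusted p of 0.20 for PRE1, 0.25 for PRE5, 0.28 for PRE4 and 0.65 for PRE2. Both adjustments rank all genes outside the table behind those in it, although their limma p-values are unknown. For a given number of tests these adjusted p are therefore upper limits. The authors' deposited table gives adjusted p-values of 0.0070 for PRE1, 0.042 for PRE2, 0.011 for PRE4 and 0.00018 for PRE5. The test is not named, and with 2 sets the p-value of PRE1 may not come from the same procedure as the other 3. Its log2 fold changes are 0.83 for PRE1, 0.98 for PRE2, -2.16 for PRE4 and 2.74 for PRE5. The log2 ratio of the deposited means is 2.27 for PRE1, 0.67 for PRE2, -1.53 for PRE4 and 1.93 for PRE5. In the authors' deposited table the fold change is thus smaller than the ratio of means in PRE1 and larger in the other 3, by factors of 0.366 in PRE1 and 1.41 to 1.46 in PRE2, PRE4 and PRE5. The order of PRE1 and PRE5 therefore depends on which of these columns is read.

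Divided by exon length in the annotation, the levels of the 4 genes can be set beside each other. In the wild type the order was PRE2 at 81.6 ± 13.4 units per kb, PRE4 at 23.8 ± 6.84, PRE1 at 7.43 ± 5.13 and PRE5 at 6.14 ± 4.36 (SD, n = 3). PRE1 and PRE5 overlapped, whereas the lowest PRE4 library (16.3 units per kb) was above the highest PRE1 library (11.3). In BIC1-YFP the order was PRE2 at 129.7 ± 39.9 units per kb, PRE1 at 35.8 ± 15.2, PRE5 at 23.3 ± 6.59 and PRE4 at 8.24 ± 4.88. PRE1 and PRE5 again overlapped, and PRE4 (3.53 to 13.3 units per kb) was below every PRE5 library (16.5 to 29.6). PRE4 was thus the second most abundant of the 4 in all wild-type libraries and the least abundant in all BIC1-YFP libraries.

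The make-up of the summed abundance shifted accordingly. PRE4 was 16.8% to 23.1% of the sum per kb in the wild-type libraries and 2.60% to 5.35% in BIC1-YFP. PRE1 was 1.21% to 9.70% and 14.2% to 19.8%, respectively, with no overlap. PRE5 was 1.15% to 6.80% in the wild type and 6.65% to 17.5% in BIC1-YFP, and these overlapped. PRE2 held most of the sum in all libraries, at 61.3% to 72.9% in the wild type and 63.1% to 68.2% in BIC1-YFP. The sum itself was 96.8, 128 and 132 units per kb in wild-type replicates 1, 2 and 3 and 248, 207 and 136 in BIC1-YFP replicates 1, 2 and 3. BIC1-YFP replicate 3 was barely above wild-type replicate 3, and replicates 1 and 2 of BIC1-YFP were well above all others.

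**Figure D3:**
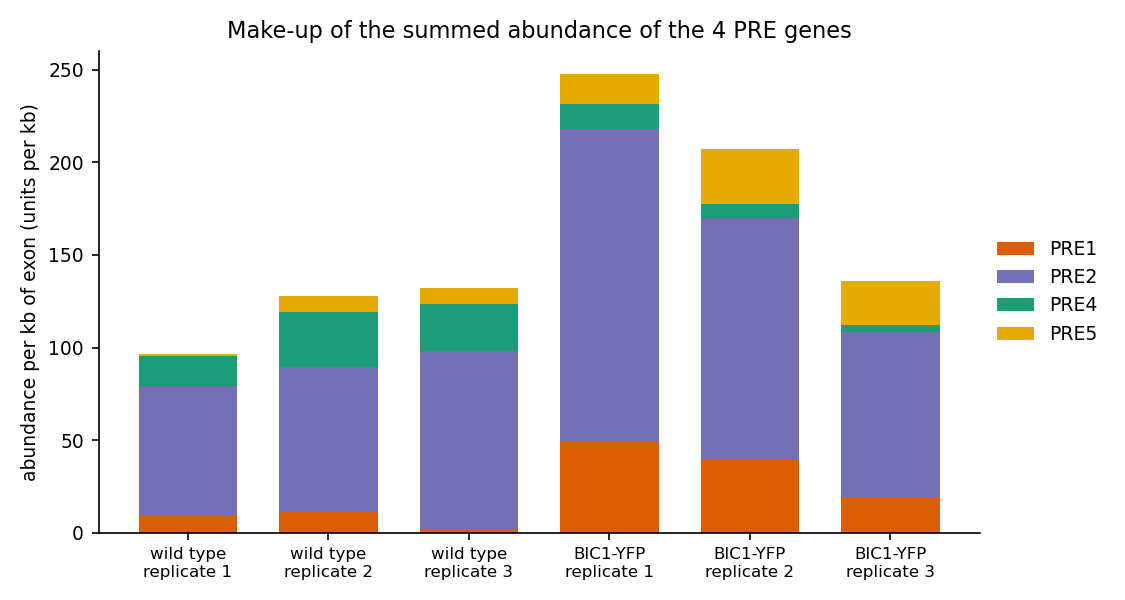
Abundance per kb of exon (units per kb, stacked from 0) of the 4 PRE genes in each library. PRE2 is the largest block throughout, the PRE4 block is smaller in each BIC1-YFP library than in any wild-type library, and the total of BIC1-YFP replicate 3 (136) is close to that of wild-type replicate 3 (132).

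Whether the members differed from each other in their response was tested on the difference of log2(value + 1) between 2 members within each library, for 6 pairs. With 3 libraries against 3, the exact permutation test cannot go below p = 0.1, so no pair can pass 0.05 here. The PRE1 minus PRE4 difference was -0.41, -0.98 and -2.95 in the wild-type libraries and 2.104, 2.43 and 2.37 in BIC1-YFP, so it was below 0 in every wild-type library and above 0 in every BIC1-YFP library, and the means differed by 3.75 (exact permutation test, two-sided, p = 0.1). PRE4 minus PRE5 moved by -3.48, PRE2 minus PRE4 by 2.101 and PRE1 minus PRE2 by 1.65, all without overlap between the genotypes and each at the smallest p possible, 0.1 (exact permutation test, two-sided). PRE1 and PRE5 were higher and PRE4 was lower in every BIC1-YFP library. The separation of PRE1 minus PRE4 and of PRE4 minus PRE5 was therefore fixed by those values and adds nothing to them. How often other gene pairs separate was not tested. PRE2 minus PRE5 overlapped, with a shift of -1.38 (exact permutation test, two-sided, p = 0.2).

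PRE1 and PRE5 were not separated from each other. Their difference was 2.17, 0.26 and -1.90 in wild-type replicates 1, 2 and 3 and 1.43, 0.30 and -0.37 in BIC1-YFP replicates 1, 2 and 3, and the shift between genotypes was 0.27 (exact permutation test, two-sided, p = 0.9). In each genotype the difference was largest in replicate 1 and lowest in replicate 3, so the pair varied more between libraries of a genotype than between the genotypes. Leaving out wild-type replicate 3 made the shift -0.76, and leaving out BIC1-YFP replicate 1 made it -0.21, so its sign rests on single libraries.

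The genes around PRE in this pathway were taken from 4 lists with 49 genes, of which 13 are in the table, 11 rose and 1 fell. The lists were chosen with earlier results of these data known, so the counts are a description and not a test. The table was preselected, and 76.6% of all genes tested were called, 37.6% higher and 39.1% lower, which are the shares to read these counts against. Genes without a row were not analysed here, which is not evidence that they did not change. Of 9 inhibitory HLH and bHLH partners, 3 are in the table, of which 2 rose. PAR1 (AT2G42870), an atypical HLH protein that restrains PIF4 and is itself bound by PRE1, rose from 88.8 ± 38.4 to 249 ± 122 units (SD, n = 3; log2 fold change 1.44, SE 0.42, limma, adjusted p = 0.024). AIF1 (AT3G05800), an inhibitor related to IBH1 that pairs with PRE3, rose from 432 ± 67.2 to 654 ± 69.3 units (log2 fold change 0.60, limma, adjusted p = 0.025). IBL1 (AT4G30410), an IBH1-like inhibitor, stood at 127 ± 17.6 and 203 ± 56.2 units and did not pass (limma, adjusted p = 0.054), though it was called without BIC1-YFP replicate 3 (limma, adjusted p = 0.033). AIF1 also missed it under median-ratio scaling (limma, adjusted p = 0.060). With single libraries left out, limma no longer called PAR1 in 4 of 6 fits (replicates 1 and 2 of the wild type, replicates 2 and 3 of BIC1-YFP; adjusted p of 0.056 to 0.063). AIF1 was likewise no longer called in 4 of 6 (replicate 2 of the wild type and each library of BIC1-YFP; adjusted p of 0.055 to 0.062). None of the 9 growth-promoting bHLH factors (HBI1, ACE1 to ACE3, BEE1 to BEE3, CIB1 and CIB5) has a row.

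Of 17 upstream regulators, 2 are in the table and both rose, against 37.6% of all genes tested that were called higher. The transcription factor gene PIF4 (AT2G43010) rose from 6.97 ± 2.71 to 94.4 ± 23.8 units (SD, n = 3). PIF5 (AT3G59060) rose from 147 ± 45.6 to 335 ± 50.6 units (SD, n = 3). The log2 fold change of PIF4, 3.61 (SE 0.34, limma, adjusted p = 0.0015), was larger than that of any PRE gene, and PIF4 stayed called over 21574 tests (adjusted p = 0.021). BZR1, BES1, the DELLA genes, the ARF genes, AP3 and PI have no row.

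Of 14 genes of cell elongation, 8 are in the table, of which 7 rose and 1 fell, against 37.6% and 39.1% of all genes tested. Their median log2 fold change was 0.98, against 0.56 over all genes tested, a value that the authors' selection shapes. As the list was chosen with earlier results of these data known, neither comparison is a test. The expansin gene EXPA3 (AT2G37640), whose product loosens cell walls, rose from 1043 ± 38.3 to 2376 ± 154 units (SD, n = 3; log2 fold change 1.19, limma, adjusted p = 0.0020), and it was the only one of the 8 still called over 21574 tests (adjusted p = 0.029). EXPA8 and EXPA11 rose by 0.95 and 0.88 on the log2 scale, and the xyloglucan enzyme gene XTH4 by 1.02. The auxin-response genes IAA29 and IAA19 rose by 2.01 and 0.87, and SAUR15, a small auxin-induced gene, by 1.33. XTH31, another xyloglucan enzyme gene, fell by 0.79. SAUR15 kept its call only without wild-type replicate 3 (limma, adjusted p of 0.065 to 0.107 without each of the others), and EXPA11 and IAA19 lost theirs without BIC1-YFP replicate 2 (0.054 and 0.057). Called higher among the 4 lists were 6 genes without BIC1-YFP replicate 2 and 2 over 21574 tests, against 11 in the main fit. Over the whole table the genes called higher were 193 and 25 in those settings, against 575.

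**Figure D4:**
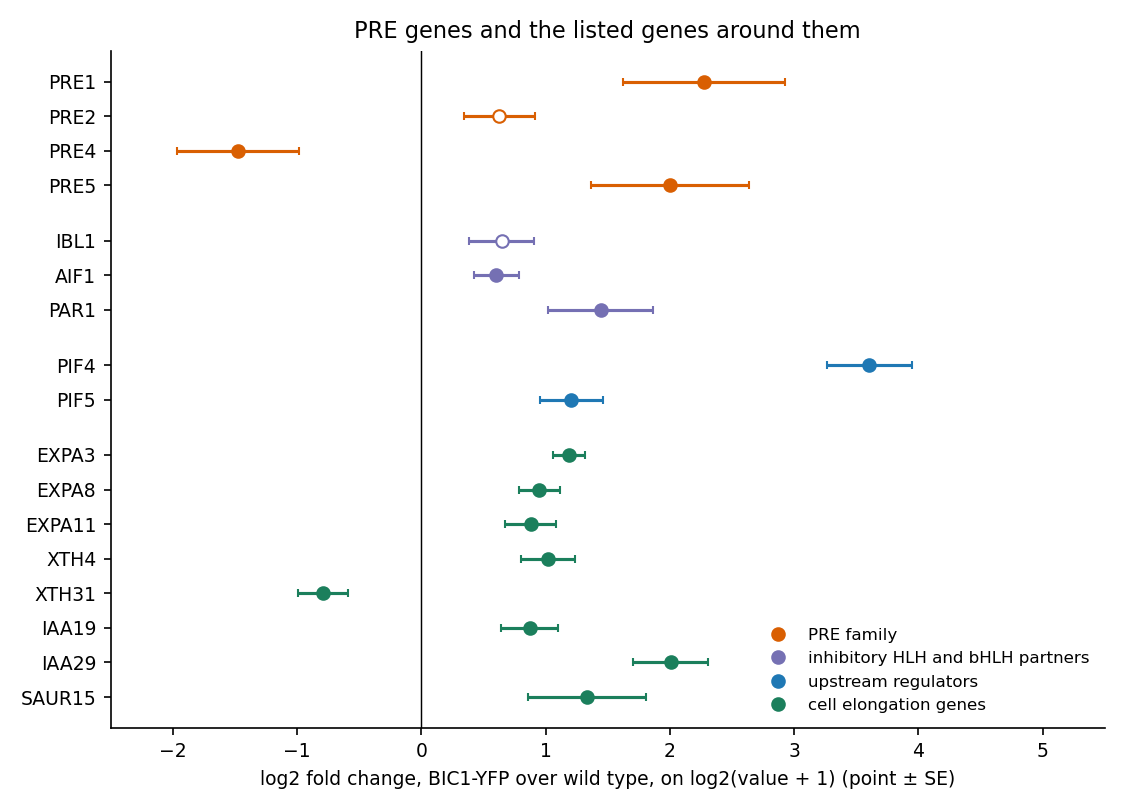
Log2 fold change (BIC1-YFP over wild type, on log2(value + 1)) with its limma SE for the PRE genes and the listed partners, upstream regulators and elongation genes that are in the table, 3 libraries a genotype. Filled points passed an adjusted p of 0.05; PRE4 and XTH31 lie below 0, the others above, and PRE2 and IBL1 are open.

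Some markers of other organs have a row, but the authors had selected every gene in the table as different. Of all genes tested, 76.6% were called, 37.6% higher and 39.1% lower, the shares to read these markers against. Markers without a row were not analysed, so no shift of a whole organ can be read from those that have one. In bulk seedlings, fewer cells of a type and less RNA per cell cannot be told apart. Of 9 root markers 3 are in the table; PRP1 and PRP3, which encode proline-rich wall proteins, fell, with log2 fold changes of -1.27 and -0.82 (limma, adjusted p = 0.020 and 0.023), and the iron transporter gene IRT1 was not called. Their summed abundance was 322 to 584 units in the wild type and 178 to 298 in BIC1-YFP, and none of the 3 was at 0. Of 7 flower markers only SEP1 is in the table, which fell by 2.21 (limma, adjusted p = 0.0066), from 26.1 to 42.0 units in the wild type to 4.68 to 9.92 in BIC1-YFP. Of 4 seed markers only CRA1 is in the table; the second BIC1-YFP library had 83.6 units of it and the others 0.219 to 6.94. The green-tissue sum was 678058 to 797872 units in the wild type and 563553 to 621383 in BIC1-YFP, with 4 of the 8 genes called higher (LHCB and LHCA) and 3 lower (RBCS). The part of these shifts in the PRE values was not tested.

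Among the 1419 other genes with a mean of at least 10 units, the libraries of some followed a PRE gene closely. Likeness was the Pearson correlation of log2(value + 1) over all 6 libraries, which includes the genotype difference itself and is a description only. The 3 genes most like PRE1 were AT1G52315 (r = 0.996), the ethylene precursor synthase gene ACS4 (AT2G22810, r = 0.988) and the expansin-like gene EXLB1 (AT4G17030, r = 0.987). ACS4 stood at 7.03, 5.20 and 1.32 units in the wild type and 26.0, 21.4 and 9.95 units in BIC1-YFP, again lowest in replicate 3 of each genotype. Nearest to PRE5 were AT3G04115 (r = 0.998), AT4G05070, described in the table as wound-responsive (r = 0.995), and the cold-regulated gene COR27 (AT5G42900, r = 0.990). Nearest to PRE4 were the IDD-family gene IDD16 (AT1G25250, r = 0.992), the extensin-like gene AT5G06630 (r = 0.981) and CIP1 (AT5G41790, r = 0.974), which encodes a partner of the light-signalling protein COP1. IDD16 stood at 47.2, 69.7 and 53.7 units in the wild type and 39.1, 27.4 and 16.8 in BIC1-YFP. Nearest to PRE2 were AT2G08340 (r = 0.986), the flavonoid glucosyltransferase gene UGT73B2 (AT4G34135, r = 0.9503) and the kinase gene AT1G24030 (r = 0.945). Genes with an r of at least 0.95 numbered 48 for PRE5, 23 for PRE1, 5 for PRE4 and 2 for PRE2.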

How the data were processed

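RNA of 6 seedling libraries was sequenced by Illumina HiSeq, per the labels' protocols. The submitters' processing notes name the build TAIR10 and the tool Cufflinks, without versions. The sources used here do not give the aligner, counter or scaling. The authors deposited a normalized signal per gene and library, a mean per genotype, log2 fold changes, and p-values with and without adjustment, for selected genes only. Of the values above 0.5 and under 15 units, those within 0.05 of a whole number were 95.2% (wild type) and 100% (BIC1-YFP) in the libraries numbered 1 and 5.24% to 7.61% elsewhere, so the values were taken as not divided by length, and reads could not be recovered.

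Genes with at least 1 unit in 3 or more libraries were kept (1531 of 1537), and genotypes were compared with limma 3.58.1 (R 4.3.3) on log2(value + 1), with a variance trend and Benjamini-Hochberg adjustment over all 1531. This scale understates the fold change of low genes. Intervals use limma's moderated degrees of freedom. The procedure was tested on simulated data. How reliable its calls are for the PRE genes in this preselected table was not tested. Replicates are called biological in the labels. Sequences and coordinates are from the RefSeq TAIR10.1 files; the deposited table has no coordinates. The number of tests implied is the largest value of adjusted p times rank over p, ranked separately within the genes whose deposited fold change is below and above the ratio of means; the larger number was the planned one.

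The members, gene lists, tests and alternatives were chosen with earlier results of these data known. Genes named are the members, BIC1, the listed genes in the table, organ markers, and for each member the 3 genes with the highest correlation.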

Additional observations from a re-analysis of the deposited data

How the results depend on the processing

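PRE1, PRE2, PRE4 and PRE5 kept their sign under every alternative run. Leaving out 1 library gave log2 fold changes of 1.59 to 2.68 for PRE1, 0.41 to 0.87 for PRE2, -1.84 to -1.06 for PRE4 and 1.29 to 2.36 for PRE5. It gave 441 to 1219 called genes, 193 to 621 higher and 248 to 598 lower, with 615 and 607 when replicate 1 or 2 of the wild type was left out, and 441 and 710 when replicate 2 or 3 of BIC1-YFP was; in the pathway lists 6 to 11 were called higher and 1 lower. Over 21574 tests 50 genes were called (25 higher and 25 lower), with 2 higher and 0 lower in the lists. The calls of PRE1 (2.28), PRE4 (-1.48) and PRE5 (2.00) were lost. Counting more tests raises adjusted p-values, but PIF4 (limma, adjusted p = 0.021) and EXPA3 (0.029) were among the 50 genes still called. The limma p before adjustment was 0.0100 for PRE1, 0.020 for PRE4 and 0.016 for PRE5. These were too large to pass with this number of tests when genes outside the table are ranked last. Over 13246 tests, added after seeing the data, 115 genes were called (48 higher and 67 lower), with 3 higher and 0 lower in the lists, and the same 3 PRE calls were lost. The authors' deposited adjusted p called PRE2, with a log2 fold change of 0.98. Other pseudocounts, filters, scaling and limma without trend changed no PRE call; a pseudocount of 5 lowered PRE1 to 1.67 and PRE5 to 1.37. The PRE1 minus PRE5 shift (0.27 with all libraries) ranged from -0.76 to 1.27 with 1 library left out; it was -0.76 without wild-type replicate 3 and -0.21 when BIC1-YFP lost replicate 1, and the cause was not tested. The labels state no pairing by replicate number. Deviations of same-numbered libraries correlated at 0.42, 0.04 and 0.44, against -0.43 to 0.09 between unlike numbers, and 5 of 6 libraries correlated best with their own number. Deviations from a genotype mean cancel within that genotype, so high values for same numbers lower those for unlike numbers. The best matches are therefore not independent of each other. What same-numbered libraries share was not tested. The main fits and those with 1 library left out used no replicate block. With the replicate block 1445 genes were called, and the limma adjusted p was 0.0035 for PRE1, 0.073 for PRE2, 0.032 for PRE4 and 0.0086 for PRE5; IBL1 was then called (0.028, against 0.054 without the block). A test for raw counts was not run because, outside the libraries numbered 1, the values are not near whole counts. Library depth is unknown, and the counting error of PRE1, PRE4 and PRE5, which average under 20 units, was not estimated. In the libraries numbered 1, 95.2% (wild type) and 100% (BIC1-YFP) of low values lie near whole numbers. Whether these are read counts was not tested. There PRE5 was 1.01 units in the wild type, and PRE4 was 11.0 units in the wild type and 9.01 in BIC1-YFP.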
